A study of Homo sapiens with 8 samples.

Results

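CCL2, CCL20, CX3CL1 and CSF1 are 4 secreted or shed factors that draw in or sustain monocytes and dendritic cells. They were found by gene symbol, and all 4 were present among the 26485 genes of each table. CCL2 is a chemokine read by the receptor CCR2 on classical monocytes, and CCL20 is the chemokine ligand of CCR6 on immature dendritic cells and T helper 17 cells. CX3CL1 (fractalkine) is made as a membrane-bound chemokine that can hold cells bearing CX3CR1 and is released as a soluble attractant by the proteases ADAM10 and ADAM17. CSF1 is the growth factor that keeps monocytes and macrophages alive through CSF1R, and it too is made in membrane-bound and secreted forms. In airway epithelium exposed to allergen, such factors are known as a link between the epithelial surface and the arrival of antigen-presenting cells. NF-kB is a known inducer of genes of this kind.

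The cells were BEAS-2B, a virus-immortalised human bronchial epithelial line, so all groups derive from 1 established line. There were 3 libraries of cells given LY96 siRNA and house dust mite (HDM) extract, 1 of cells given LY96 siRNA and PBS, 3 of cells given control siRNA and HDM extract, and 1 of cells given control siRNA and PBS. All cells were grown in BEGM medium, were switched to BEBM medium 24 h before stimulation and were harvested 24 h after it. LY96 encodes MD-2, the lipopolysaccharide-binding partner of TLR4, and the study asked how its suppression alters the response to HDM.

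The values are FPKM (fragments per kilobase of transcript, scaled to library size), which may be compared between genes because they are per length. The value of LY96 was 0 in every library of either siRNA, so its depletion could not be checked and the groups are named by their labels. Library totals lay between 329777 and 340328 FPKM and read depth is unknown. All 9 epithelial markers (KRT5, KRT7, KRT8, KRT17, KRT18, KRT19, CDH1, EPCAM and TP63) averaged above 1 FPKM. Of 12 myeloid markers, 2 did (CD14 and CD68), while PTPRC, CD163, AIF1 and TYROBP were listed at 0 in all 8 libraries. Whether replicate libraries derive from different cultures is not said in the labels. The p-values therefore rest on library-to-library spread, part or all of which may be technical. In bulk RNA, a change in the number of expressing cells and a change in RNA per cell cannot be told apart.

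The start region of CCL20, a gene near or at 0 without HDM, is shown because CCL20 is the one of the 4 in the RefSeq table of start regions. Those of CCL2, CX3CL1 and CSF1 were not analysed here. The stretch covers 250 bases before and 50 bases after the RefSeq start site at chromosome 2, position 227813842 (GRCh38.p14, plus strand, chr2:227813592-227813891), inside the wider gene span that GENCODE gives, and a match to the NF-kB consensus is in capitals.
CCL20: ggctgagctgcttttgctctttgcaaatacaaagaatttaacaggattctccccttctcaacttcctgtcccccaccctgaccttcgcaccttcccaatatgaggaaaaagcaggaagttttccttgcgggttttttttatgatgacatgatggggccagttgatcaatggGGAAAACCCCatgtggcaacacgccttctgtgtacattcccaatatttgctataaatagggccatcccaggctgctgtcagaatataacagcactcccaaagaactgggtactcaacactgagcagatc
The match GGAAAACCCC runs from base -79 to base -70 counted from the start site and fits the consensus on the opposite strand, and a TATAAA box lies from base -29 to base -24. With both strands read, 10.8% of 27305 RefSeq start regions of the same length hold a match to the NF-kB consensus. TATAAA, read on the plus strand of each gene, is in 7.71% of them. No match to the AP-1 motif TGANTCA or the C/EBP motif TTNNGNAA, both read on both strands, was found in these letters, and 7.76% and 37.2% of the start regions hold one. The GC content of the CCL20 region was 46.3%, and the median over all start regions was 58.3%. These are descriptions of letters and not of binding.

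Under HDM extract CCL2, CCL20 and CSF1 were higher than under PBS with either siRNA, and CX3CL1 was not. Averaged over both siRNAs, 3 of the 4 genes rose at an adjusted p below 0.05, where 4.86% of 12604 tested genes rose. The same 3 passed with LY96 siRNA alone, where 2.91% of genes rose, and with control siRNA alone, where 1.55% rose. The 4 genes were chosen with earlier results of these data known, so counts of them beside such shares are descriptions. CCL20 reached the level tested, a mean of 1 FPKM, through its HDM libraries alone, so its calls for HDM were partly set by that condition. Tests were made with limma on log2(FPKM + 1), with Benjamini-Hochberg adjustment over all tested genes. With 1 PBS library per siRNA, these tests assume that a PBS library varies as HDM libraries do.

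**Figure D1:**
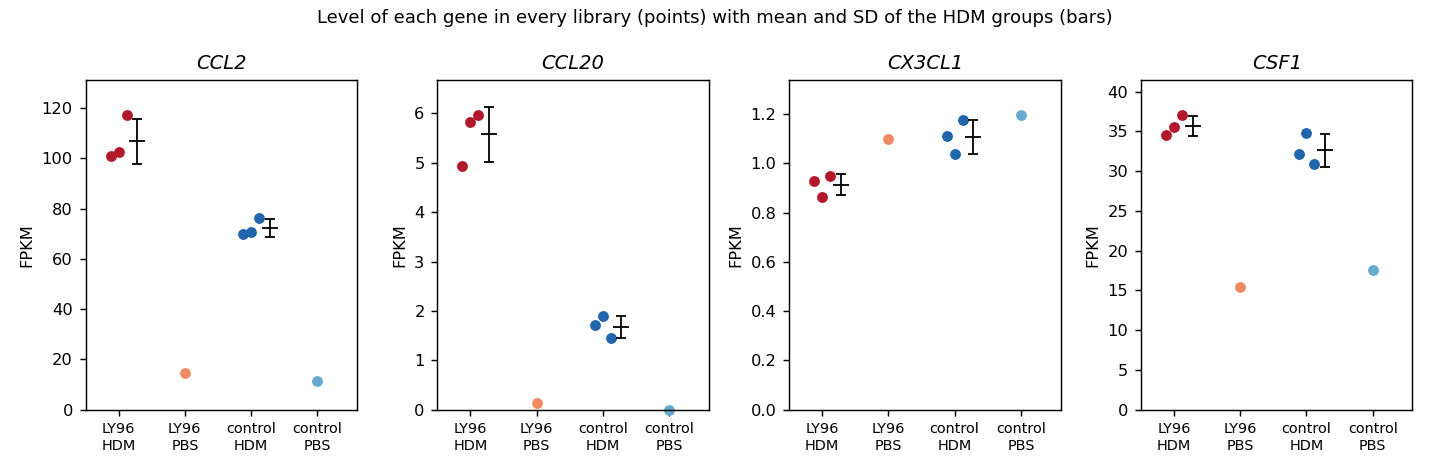
FPKM of CCL2, CCL20, CX3CL1 and CSF1 (1 panel each) in every library. Points are libraries, and the bars beside the HDM points are the mean and SD of 3 libraries. The HDM libraries of CCL2, CCL20 and CSF1 all lie above both PBS libraries, whereas the CX3CL1 points lie between 0.864 and 1.20 FPKM in all groups. The share of all genes with such a separation was not computed.

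CCL2 (chromosome 17, 34255218 to 34257203, GRCh38, plus strand, 3 exons) was the most abundant of the 4 in every HDM library. With LY96 siRNA it was at 101, 102 and 117 FPKM under HDM, against 14.8 FPKM under PBS. With control siRNA it was at 69.8, 70.6 and 76.4 FPKM under HDM, against 11.4 FPKM under PBS. Every HDM library was thus far above the single PBS library of its siRNA. Under HDM, the LY96 siRNA libraries stood clear of the control siRNA libraries, a separation that 37.0% of tested genes had in either direction. The mean under HDM was 7.22-fold that under PBS with LY96 siRNA and 6.32-fold with control siRNA. On the log2(FPKM + 1) scale the HDM difference was 2.77 ± 0.09 SE with LY96 siRNA (adjusted p = 1.12e-06) and 2.56 ± 0.09 SE with control siRNA (adjusted p = 4.38e-06). Averaged over both siRNAs the difference was 2.66, the rank of 4 from the highest among 12604 tested genes.

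The rise placed CCL2 among the more abundant transcripts of the cells. Between 384 and 477 genes had a higher FPKM in the LY96 siRNA HDM libraries, against 4516 in the LY96 siRNA PBS library. Between 714 and 798 genes did in the control siRNA HDM libraries, against 5646 in the control siRNA PBS library. Of 29 CC and CX3C chemokine genes in the tables, taken by symbol, 4 averaged at least 1 FPKM: CCL2, CCL28, CCL20 and CX3CL1. Another 21 were listed at 0 in all 8 libraries. CCL2 made up 90.1% to 91.3% of the summed FPKM of these genes in the LY96 siRNA HDM libraries and 72.2% in the LY96 siRNA PBS library. Its share was 90.3% to 91.7% in the control siRNA HDM libraries and 68.3% in the control siRNA PBS library. CCL28, a mucosal chemokine for lymphocytes and eosinophils that was not among the 4, averaged 3.81 FPKM with LY96 siRNA and HDM and 4.01 FPKM with LY96 siRNA and PBS. It averaged 3.85 FPKM with control siRNA and HDM and 3.58 FPKM with control siRNA and PBS.

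CCL20 (chromosome 2, 227805739 to 227817564, plus strand, 4 exons) was near or at 0 without HDM. With LY96 siRNA it was at 4.93, 5.83 and 5.96 FPKM under HDM, against 0.137 FPKM under PBS. With control siRNA it was at 1.71, 1.89 and 1.45 FPKM under HDM and was listed at 0 under PBS. Under HDM, the LY96 siRNA libraries did not overlap the control siRNA libraries, a separation that 37.0% of tested genes had in either direction. The lowest LY96 siRNA HDM library was 3.04 FPKM above the highest control siRNA HDM library. On the log2(FPKM + 1) scale the HDM difference was 2.53 ± 0.13 SE with LY96 siRNA (adjusted p = 1.31e-05) and 1.42 ± 0.13 SE with control siRNA (adjusted p = 6.55e-04). These sizes depend on the added constant because the PBS values are so low. With 0.1 in place of 1, they were 4.58 with LY96 siRNA and 4.15 with control siRNA. CCL20 entered these tests through its HDM libraries alone, so being higher under HDM was part of being tested. Its HDM p-values are therefore descriptions. No ratio is given against the library at 0, and an exact 0 in FPKM tables can be a failed estimate. Of 12604 genes averaging at least 1 FPKM, 26 had an exact 0 in some library.

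CSF1 (chromosome 1, 109910242 to 109930992, plus strand, 9 exons in the principal transcript) was already well expressed under PBS. With LY96 siRNA it was at 34.5, 35.5 and 37.1 FPKM under HDM, against 15.5 FPKM under PBS. With control siRNA it was at 32.2, 34.9 and 30.9 FPKM under HDM, against 17.6 FPKM under PBS. All 6 HDM libraries exceeded both PBS libraries by at least 13.2 FPKM, and the HDM libraries of the 2 siRNAs overlapped. How many of all genes separate HDM from PBS in this way was not computed. The mean under HDM was 2.31-fold that under PBS with LY96 siRNA and 1.85-fold with control siRNA. The log2 difference was 1.15 ± 0.07 SE (adjusted p = 2.52e-05) with LY96 siRNA and 0.85 ± 0.07 SE (adjusted p = 3.19e-04) with control siRNA. In FPKM, the HDM minus PBS difference was 20.2 with LY96 siRNA and 15.004 with control siRNA.

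CX3CL1 (chromosome 16, 57372458 to 57385048, plus strand, 3 exons) did not pass the test in any comparison. With LY96 siRNA it was at 0.930, 0.864 and 0.949 FPKM under HDM, against 1.10 FPKM under PBS. With control siRNA it was at 1.11, 1.04 and 1.17 FPKM under HDM, against 1.20 FPKM under PBS. Each HDM library was a little below the PBS library of its siRNA, by 16.9% on average with LY96 siRNA and by 7.37% with control siRNA. How many of all genes do so was not computed. The log2 difference was -0.13 with LY96 siRNA (95% interval -0.40 to 0.13, adjusted p = 0.660) and -0.06 with control siRNA (95% interval -0.33 to 0.21, adjusted p = 0.853). Both intervals thus lie below the HDM differences of CCL2, CCL20 and CSF1. On this scale a low gene moves less than its ratio, and with 0.1 in place of 1 the differences were -0.24 with LY96 siRNA and -0.10 with control siRNA.

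**Figure D2:**
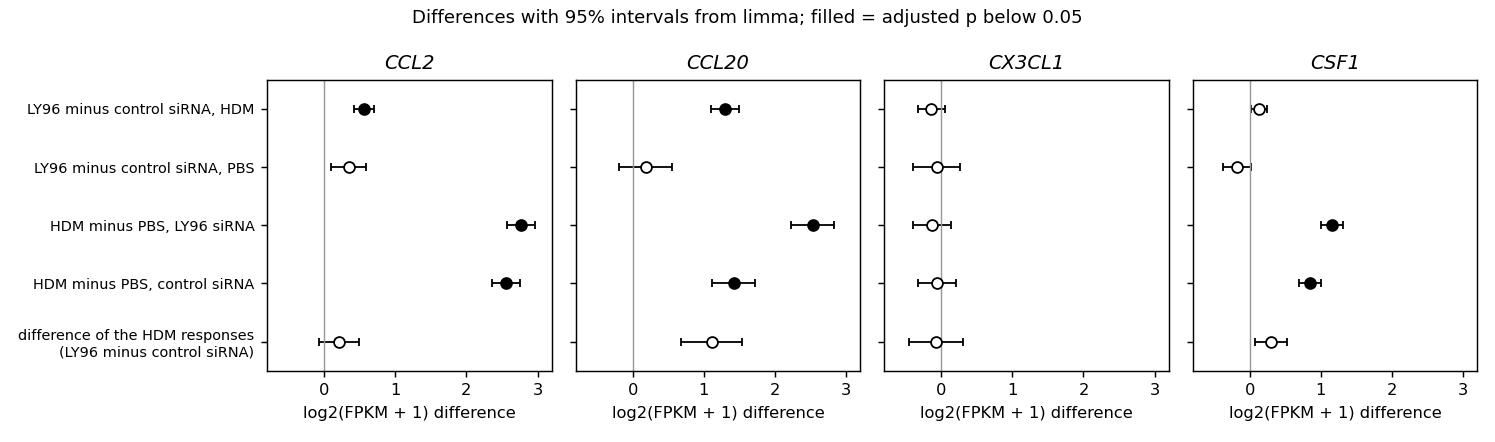
Differences on the log2(FPKM + 1) scale for the 4 genes (panels) and 5 comparisons (rows), with 95% intervals from limma. Filled points passed an adjusted p of 0.05. CCL2, CCL20 and CSF1 passed for HDM with either siRNA, CCL2 and CCL20 passed for LY96 siRNA under HDM, and no point passed for the difference of the HDM responses. CCL20 reached the level tested through its HDM libraries alone.

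Under HDM, LY96 siRNA was accompanied by more CCL2 and CCL20 than control siRNA, and a difference in CSF1 or CX3CL1 did not pass the test. Thus 2 of the 4 rose, where 6.68% of 12598 tested genes rose and 15.6% were called in either direction. CCL20 averaged 5.58 ± 0.562 FPKM with LY96 siRNA and 1.68 ± 0.223 FPKM with control siRNA (SD, n = 3 each), a ratio of 3.32. Its log2 difference was 1.29 ± 0.09 SE (adjusted p = 1.11e-04), the rank of 15 from the highest among 12598 tested genes. CCL2 averaged 107 ± 9.05 FPKM with LY96 siRNA and 72.3 ± 3.64 FPKM with control siRNA (SD, n = 3 each), a ratio of 1.48. Its log2 difference was 0.56 ± 0.06 SE (adjusted p = 0.00110).

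CSF1 averaged 35.7 ± 1.26 FPKM with LY96 siRNA and 32.6 ± 2.04 FPKM with control siRNA (SD, n = 3 each). The log2 difference was 0.13 (95% interval 0.02 to 0.24, adjusted p = 0.110), with an unadjusted interval whose upper bound is below the CCL2 difference. CX3CL1 averaged 0.914 ± 0.0446 FPKM with LY96 siRNA and 1.11 ± 0.0680 FPKM with control siRNA (SD, n = 3 each), which is 17.5% lower. The 3 LY96 siRNA libraries of CX3CL1 lay below all 3 control siRNA libraries. Such a separation was common, with 37.0% of tested genes not overlapping between the siRNA groups in either direction and 21.8% lower with LY96 siRNA. The log2 difference of CX3CL1 was -0.14 (95% interval -0.33 to 0.05, adjusted p = 0.293).

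The ribosomal RNA genes RNA18S5 and RNA28S5 summed to 1.03%, 1.03% and 1.31% of FPKM in the LY96 siRNA HDM libraries, against 0.824%, 0.475% and 0.565% in the control siRNA HDM libraries. The part of this in the siRNA differences was not tested. The summed FPKM of the 12 myeloid markers was 9.70 to 11.2 in the LY96 siRNA HDM libraries and 7.72 in the LY96 siRNA PBS library. It was 8.69 to 9.39 in the control siRNA HDM libraries and 7.07 in the control siRNA PBS library. The sum was thus higher where CCL2 and CCL20 were higher, and its part in their differences was not tested. It consisted mainly of CD14 and CD68, of which only CD68 passed between the siRNAs under HDM. In limma, CD68 was higher with LY96 siRNA (log2 difference 0.54, adjusted p = 0.00304) and CD14 was not (-0.07, adjusted p = 0.526). The pan-leukocyte gene PTPRC was listed at 0 throughout. The summed FPKM of 7 fibroblast markers ran the other way under HDM, at 16.9 to 19.003 against 25.7 under PBS with LY96 siRNA. With control siRNA it was at 16.03 to 17.1 under HDM against 22.9 under PBS. Of the 7, only COL1A1 and PDGFRB averaged at least 1 FPKM. With HDM over both siRNAs, PDGFRB fell in limma (log2 difference -0.60, adjusted p = 1.62e-04) and COL1A1 did not pass (-0.23, adjusted p = 0.174).

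Under PBS, each siRNA had 1 library, and none of the 4 genes passed at an adjusted p below 0.05, where 0.468% of 12604 genes were called. At an unadjusted p below 0.05 in limma there was 1 of 4, a looser threshold to which that share does not apply. CCL2 was at 14.8 FPKM with LY96 siRNA and 11.4 FPKM with control siRNA (log2 difference 0.34, 95% interval 0.10 to 0.59, adjusted p = 0.174). CSF1 was at 15.5 FPKM with LY96 siRNA and 17.6 FPKM with control siRNA (log2 difference -0.18, 95% interval -0.37 to 0.02, adjusted p = 0.355). The order of CSF1 levels between the siRNAs under PBS was therefore the opposite of that of the means under HDM, and neither difference passed the test.

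Whether LY96 siRNA altered the HDM response itself was tested by subtracting the HDM difference under control siRNA from the one under LY96 siRNA. None of the 4 passed at an adjusted p below 0.05, where 0.0555% of 12604 genes were called. At an unadjusted p below 0.05 in limma there were 2 of 4, a looser threshold to which that share does not apply. CCL20 had the largest value of the 4, 1.11 on the log2(FPKM + 1) scale (95% interval 0.68 to 1.54, adjusted p = 0.107). It shrank to 0.43 (adjusted p = 0.779) with 0.1 in place of 1, since the control siRNA PBS library is at 0. In FPKM, the HDM minus PBS difference of CCL20 was 5.44 with LY96 siRNA and 1.68 with control siRNA. CSF1 had 0.30 (95% interval 0.08 to 0.53, adjusted p = 0.515), CCL2 had 0.21 (95% interval -0.07 to 0.49, adjusted p = 0.735) and CX3CL1 had -0.07 (95% interval -0.45 to 0.30, adjusted p = 0.941). The intervals do not show equal responses, and for CCL2 the upper bound leaves room for a response larger by 0.49.

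In order of level, CCL2 ran from LY96 siRNA with HDM through control siRNA with HDM and LY96 siRNA with PBS to control siRNA with PBS, and the first pair differed beyond its spread. CCL20 had the same order. CSF1 ran from LY96 siRNA with HDM through control siRNA with HDM, which overlapped, to control siRNA with PBS and LY96 siRNA with PBS. CX3CL1 ran from control siRNA with PBS through control siRNA with HDM and LY96 siRNA with PBS to LY96 siRNA with HDM, and the LY96 siRNA PBS value lay within the range of the control siRNA HDM libraries.

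The receptors that read these factors were at or close to 0 in the cells. CCR2 and CX3CR1 were listed at 0 in all 8 libraries, CCR6 reached at most 0.0167 FPKM and CSF1R at most 0.379 FPKM. None reached the level tested. CSF1R was at 0.152, 0.134 and 0 FPKM with LY96 siRNA and HDM, against 0.379 FPKM with LY96 siRNA and PBS. It was at 0.154, 0.0762 and 0.105 FPKM with control siRNA and HDM, against 0.156 FPKM with control siRNA and PBS.

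Of 5 atypical receptors, which bind chemokines without the usual signalling, ACKR1 was the one tested. It was higher with LY96 siRNA under HDM (8.19, 7.41 and 7.01 FPKM) than with control siRNA under HDM (5.62, 6.29 and 5.63 FPKM), with a log2 difference of 0.32 (adjusted p = 0.0144). Its HDM difference over both siRNAs, 0.23, did not pass (adjusted p = 0.0690). ACKR3, a scavenger of CXCL12, was below the level tested, at 0.650, 0.364 and 0.825 FPKM with LY96 siRNA and HDM, against 1.47 FPKM with LY96 siRNA and PBS. It was at 0.392, 0.405 and 0.313 FPKM with control siRNA and HDM, against 1.91 FPKM with control siRNA and PBS. All 6 HDM libraries of ACKR3 thus lay below both PBS libraries, of which there is 1 per siRNA. ACKR3 was named after its values were seen, and the share of all genes with such a separation was not computed.

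Of 16 other factors that attract or sustain monocytes and dendritic cells, 3 reached the level tested. CXCL16, a chemokine made with a membrane anchor like CX3CL1, was the one that rose with HDM over both siRNAs (log2 difference 0.36, adjusted p = 0.00223). It was at 15.5, 17.2 and 15.5 FPKM with LY96 siRNA and HDM, against 13.0 FPKM with LY96 siRNA and PBS. It was at 16.2, 15.7 and 16.0 FPKM with control siRNA and HDM, against 11.7 FPKM with control siRNA and PBS. CXCL14, an epithelial chemokine for monocytes and dendritic cell precursors, was the one that fell with LY96 siRNA under HDM. It was at 5.25, 6.21 and 5.28 FPKM with LY96 siRNA and at 8.07, 7.41 and 7.19 FPKM with control siRNA (log2 difference -0.38, adjusted p = 0.00863). FLT3LG, the growth factor of dendritic cell precursors, passed in neither comparison (adjusted p = 0.0805 for HDM and 0.112 for LY96 siRNA under HDM). Among all tested genes, 4.86% rose with HDM, and 15.6% were called in either direction for LY96 siRNA under HDM. CCL3, CCL4, CCL7, CCL8, CCL13 and CCL17 were listed at 0 in all 8 libraries, and CSF2, the gene for GM-CSF, reached at most 0.361 FPKM.

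Of 6 shedding and processing genes, 5 were tested. With HDM over both siRNAs, RHBDF2, which carries ADAM17 to the surface, rose (log2 difference 0.30, adjusted p = 0.00371) and TIMP3, an inhibitor of ADAM17, fell (-0.68, adjusted p = 2.53e-04). Of 12604 tested genes, 1054 were called in either direction there. TIMP3 averaged 2.72 ± 0.185 FPKM with LY96 siRNA and HDM (SD, n = 3), against 5.35 FPKM with LY96 siRNA and PBS. It averaged 3.59 ± 0.134 FPKM with control siRNA and HDM (SD, n = 3), against 5.86 FPKM with control siRNA and PBS. With LY96 siRNA under HDM, ADAM10 fell (-0.23, adjusted p = 0.00317), TIMP3 fell (-0.31, adjusted p = 0.0153) and ADAM17 rose (0.18, adjusted p = 0.0385). Among all tested genes, 15.6% were called in either direction for this comparison. ADAM10 was also lower with LY96 siRNA under PBS, at 30.9 against 35.1 FPKM (1 library each). Its HDM difference over both siRNAs did not pass (0.02, adjusted p = 0.847). With control HDM replicate 2 left out, TIMP3 no longer passed (adjusted p = 0.0584). The call of ADAM17 was lost in 5 of 6 fits that left out 1 HDM library (adjusted p from 0.0672 to 0.108) and was kept without control HDM replicate 2 (adjusted p = 0.0439). The median log2 difference of the 5 was 0.02 for HDM and 0.05 for LY96 siRNA under HDM, and that of all tested genes was 0.01 and -0.02 in the same order.

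NF-kB subunit and feedback genes moved in the same direction as CCL2 and CCL20. All 7 were tested and 6 rose with HDM over both siRNAs, where 4.86% of all tested genes rose. The median log2 difference of the 7 was 0.91, against 0.01 for all tested genes. This list was also chosen with earlier results of these data known. NFKBIA, the gene for the inhibitor that retains NF-kB in the cytoplasm, had a log2 difference of 1.35 (adjusted p = 1.34e-06). RELB, a subunit of the non-canonical pathway, had 1.31 (adjusted p = 4.23e-07), TNFAIP3, which encodes A20, had 1.10 (adjusted p = 2.72e-05), NFKB2 had 0.91 (adjusted p = 1.66e-06) and NFKB1 had 0.78 (adjusted p = 3.50e-06). REL also passed (0.26, adjusted p = 0.0431), but its call was lost in 5 of 6 fits that left out 1 HDM library (adjusted p from 0.0705 to 0.0852). It was kept without LY96 HDM replicate 3 (adjusted p = 0.0428). RELA, the subunit that carries most canonical activity, did not pass (0.11, adjusted p = 0.118).

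With LY96 siRNA under HDM, 6 of the 7 rose, where 6.68% of all tested genes rose, with a median log2 difference of 0.34 against -0.02 for all tested genes. RELB averaged 17.4 ± 0.552 FPKM with LY96 siRNA and 12.5 ± 0.382 FPKM with control siRNA (SD, n = 3 each, log2 difference 0.45, adjusted p = 4.28e-04). NFKBIA averaged 70.9 ± 4.61 FPKM with LY96 siRNA and 54.5 ± 2.58 FPKM with control siRNA (SD, n = 3 each, log2 difference 0.37, adjusted p = 0.00298). TNFAIP3 had 0.41 (adjusted p = 0.00623), REL had 0.34 (adjusted p = 0.00972), NFKB2 had 0.31 (adjusted p = 0.00121) and NFKB1 had 0.31 (adjusted p = 0.00110). RELA had 0.10 (adjusted p = 0.119). Under PBS, with 1 library per siRNA, none of the 7 passed, where 0.468% of 12604 genes were called. Their median log2 difference there was 0.11, with REL at 0.54, NFKB1 at 0.30 and NFKB2 at -0.03. For the difference of the HDM responses none of the 7 passed, where 0.0555% of 12604 genes were called, and their median was 0.21.

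**Figure D3:**
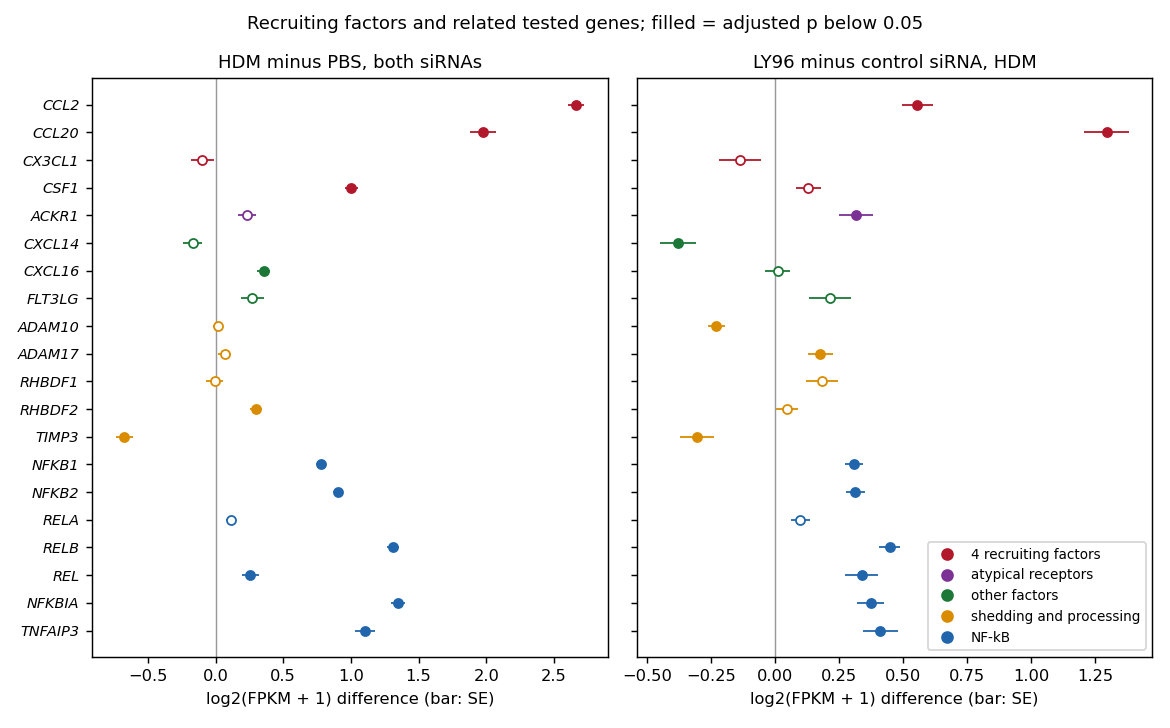
Differences on the log2(FPKM + 1) scale, with SE as bars, for the 4 recruiting factors and the tested genes of 4 related lists, for HDM minus PBS over both siRNAs (left) and LY96 minus control siRNA under HDM (right). Filled points passed an adjusted p of 0.05. RELB and NFKBIA lie at 1.31 and 1.35 on the left, between CSF1 at 1.00 and CCL20 at 1.97.

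The genes whose pattern over the 8 libraries was closest to each of the 4 were found by the root mean square difference of log2(FPKM + 1) values, each gene centred on its own mean, among 12603 other genes. This is a description of 8 libraries in 4 groups, and neighbours share the same libraries. On this scale genes near 0 move less than their ratios. The neighbours of CCL20 and CX3CL1 and the sizes of their patterns therefore depend on the added constant. CCL2 was closest to the acute-phase genes SAA2 (0.11) and SAA1 (0.14), the cytokine gene IL32 (0.14), the neutrophil chemokine gene CXCL2 (0.16) and the complement gene CFB (0.21), where the size of its own pattern was 1.18. SAA1 and SAA2 are near-identical copies, so reads may be split between them. CCL20 was closest to the neutrophil chemokine genes CXCL6 (0.17) and CXCL5 (0.26), the chitinase-like gene CHI3L1 (0.24), TNFAIP2 (0.28) and the superoxide dismutase gene SOD2 (0.30), where its own size was 1.03. CXCL6 averaged 4.67 FPKM with LY96 siRNA and HDM, against 0.151 FPKM with LY96 siRNA and PBS. It averaged 1.61 FPKM with control siRNA and HDM and, like CCL20, was listed at 0 with control siRNA and PBS.

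CSF1 was closest to SULF1, a heparan sulphate editing enzyme gene (0.06), the transcription factor gene CEBPD (0.08), the adhesion molecule gene ICAM1 (0.09), the complement gene C4B_2 (0.10) and the apoptosis inhibitor gene BIRC3 (0.10), where its own size was 0.44. C4B_2 is 1 of several near-identical copies. ICAM1 averaged 49.4 FPKM with LY96 siRNA and HDM, against 19.1 FPKM with LY96 siRNA and PBS, and 47.1 FPKM with control siRNA and HDM, against 24.1 FPKM with control siRNA and PBS. It thus shared with CSF1 close HDM levels of both siRNAs. On this scale CX3CL1 had little pattern of its own, with a size of 0.08, and was closest to the widely expressed genes CBX6 (0.02), OST4, TERF2IP, KDM3A and DDX6 (0.03 each). Among the 4 themselves, CCL2 and CCL20 were the closest pair, with a root mean square difference of 0.45, and CCL2 and CX3CL1 the most distant, with 1.24.

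**Figure D4:**
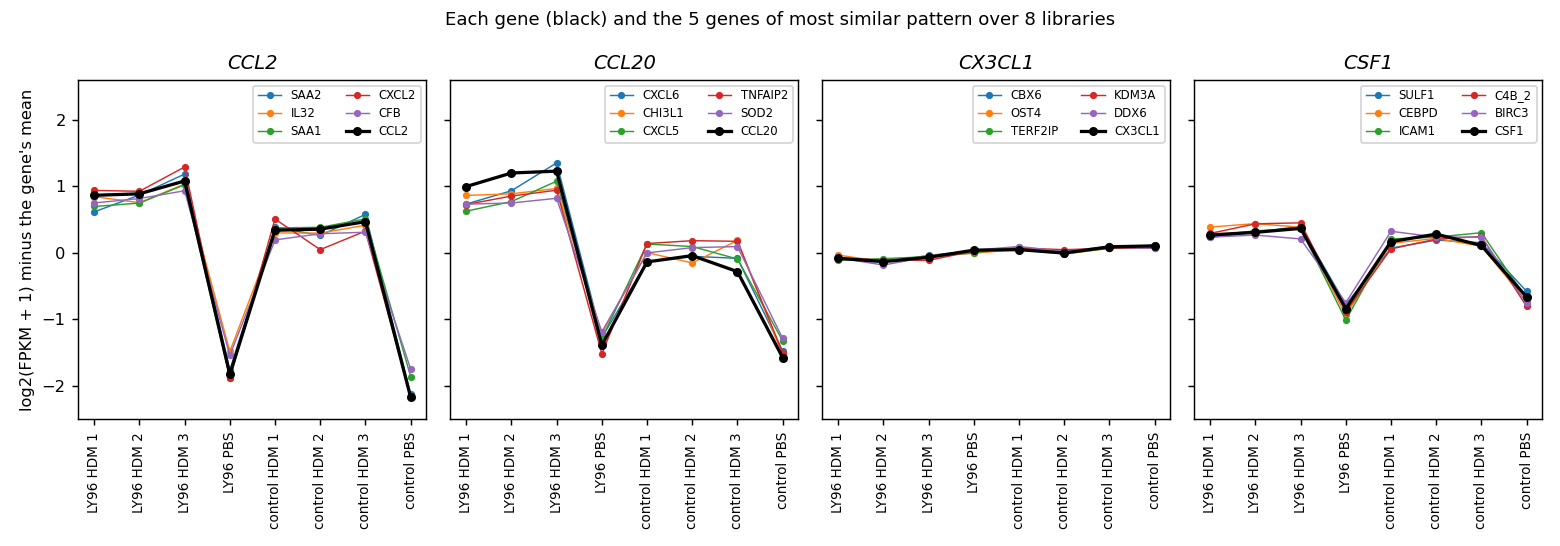
Values of log2(FPKM + 1) minus the mean of each gene over 8 libraries, for each of the 4 genes (black) and the 5 genes closest to it (coloured), in 4 panels with 1 point per library. CCL2 and its neighbours have low points in both PBS libraries and lower points in the control siRNA HDM than in the LY96 siRNA HDM libraries, CSF1 and its neighbours differ less between the siRNAs under HDM, and CX3CL1 and its neighbours are nearly flat.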

How the data were processed

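RNA-seq of 8 BEAS-2B libraries was deposited as 8 tables with 1 value per gene symbol. The authors' deposited values were read as FPKM from their properties, since neither the labels nor the headers name the unit. Per the submitters' processing notes, HISAT2 2.2.0 and the hg38 build were used. For the quantification program and annotation, names were not given in the sources used here. Depth is unknown, so no counting interval is given. Groups were taken from the sample titles. No 2 tables were identical among 28 pairs.

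The tests used limma 3.58.1 (R 4.3.3, mean-variance trend, robust moderation) on log2(FPKM + 1). A gene entered a fit if it averaged 1 FPKM or more in that fit. The siRNA effect under HDM used 6 HDM libraries, and the other comparisons were contrasts between 4 group means in all 8 libraries, both with 4 residual degrees of freedom. Two-sided p-values were adjusted by Benjamini-Hochberg across every tested gene, with a threshold of 0.05. The scripts were tested on simulated data. The 4 genes and the lists were chosen with earlier results of these data known. All 4 genes were named, with the receptors, up to 5 called genes per list and comparison (of NF-kB genes, all 7 are given) and the 5 closest genes each. Further genes below the level tested were named after their values were seen. Gene coordinates are those of GENCODE 29, the start region is from the RefSeq table, which held CCL20, and Python 3.11.15 with pandas 2.3.3 made the summaries. The alternatives tried were other pseudocounts, no filter, 2 scalings, plain moderation, each HDM library left out, a replicate block and an additive model.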

Additional observations from a re-analysis of the deposited data

How the results depend on the processing

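The 318 values of the 4 genes under the alternatives kept their direction and their side of the threshold. CX3CL1 gave no value for LY96 siRNA under HDM without control HDM replicate 1 or 3, where its mean fell below 1 FPKM. CCL20's HDM difference over both siRNAs ranged from 1.95 to 4.36, the highest with a pseudocount of 0.1. Whether sample numbers pair the libraries is not said in the labels. Deviations of same-numbered HDM libraries correlated at 0.03, -0.02 and -0.02, and those of differently numbered ones at -0.02 to 0.04. These values show no pairing but cannot establish that there was none. With a replicate block in limma, CCL20 kept its siRNA call (adjusted p = 7.86e-04). CSF1's siRNA difference under HDM had adjusted p from 0.0514 to 0.579, the highest in the additive model.

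Counts over all genes moved more. Leaving out 1 HDM library gave 1119 (control replicate 2) to 1369 calls in place of 1966 for the siRNA effect under HDM, and 187 (control replicate 2) to 329 in place of 288 for HDM with control siRNA. It gave 26 (control replicate 1) to 55 in place of 59 for the siRNA effect under PBS. Control replicate 3 left 1243 and 31, and control replicate 2 left 38 under PBS. For the difference of HDM responses it gave 0 (control replicate 1, 904 at an unadjusted p below 0.05) to 33 (LY96 replicate 2) in place of 7. Plain limma moderation gave 180 for HDM with control siRNA, 2 for the siRNA effect under PBS and 0 for the difference of responses (967 at an unadjusted p below 0.05). That difference had 20 calls without the filter, 14 after quantile normalization and 3 with the replicate block. The causes were not tested.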
